A study of Homo sapiens with 41 samples.

Results

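The zinc finger genes of the short arm of chromosome 19 (19p ZNF genes) were described across peak lists of MDA-MB-231, a human breast cancer cell line. They were chosen by name and position: protein-coding genes of chromosome 19 whose symbol starts with ZNF and a digit and whose start lies below 24500000 in GRCh38. This gave 84 of 19974 protein-coding genes on chromosomes 1 to 22 and X. The choice also named ZNF93, ZNF486 and ZNF737 for their loss of RNA polymerase II (PolII) peaks with an inhibitor, so PolII values with and without that inhibitor are given as a description. Just inside the bound, the last members were ZNF726 and ZNF254, with peaks in 17 and 27 of 32 lists. The first ZNF genes beyond it were ZNF536 and ZNF507, with peaks in 15 and 18 lists.

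Zinc finger genes of this kind mostly encode DNA-binding proteins of the KRAB class, in which an array of zinc fingers reads a DNA sequence and the KRAB domain recruits the corepressor TRIM28. TRIM28 in turn brings the histone methyltransferase SETDB1 and heterochromatin proteins, and the usual targets are retroelements. ZNF93 is known for repressing LINE-1 elements and ZNF91 for repressing SVA elements. The genes lie in clusters that grew by tandem duplication, so that neighbours share much of their sequence. The study asked what happens to chromatin when HDAC6, a mostly cytoplasmic deacetylase whose main known substrate is tubulin, is inhibited or depleted.

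The inhibitor Nexturastat A (NextA) was given at 5 µM for 2 days, and its reference was untreated parental cells (Ctrl). A second experiment compared cells with a hairpin against HDAC6 (shHDAC6) with cells carrying a control hairpin (shCtrl). Every ChIP-seq and ATAC-seq library came from 100000 cells. PolII, with an antibody to the Rpb1 C-terminal domain, had 2 lists in each of the 4 groups, and ATAC-seq, which maps open chromatin, had 3 in each. Acetylated histone H3 (pan-acetyl antibody) had 2 NextA and 2 Ctrl lists. HDAC6 ChIP had 2 NextA, 2 shHDAC6 and 2 Ctrl lists, and HDAC6 CUT&Tag had 2 Ctrl lists. The labels do not say whether replicates are separate cultures, whether a hairpin line is 1 clone, or how hairpin cells were selected. Nor do they give a protein level for HDAC6 after knockdown, and the PolII peak at the HDAC6 start, present in 2 of 2 lists of every group, does not measure it.

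The upstream 250 bases of 6 genes are shown because the results turn on them: ZNF93, ZNF486 and ZNF737 had no PolII peak with NextA, ZNF91 is a near relative that kept one, and ZNF136 and ZNF709 gained a peak after knockdown. Capitals mark CCAAT, the core of the NF-Y motif, and CGCG, on either strand.
ZNF93 (chr19:19900696-19900945, plus strand): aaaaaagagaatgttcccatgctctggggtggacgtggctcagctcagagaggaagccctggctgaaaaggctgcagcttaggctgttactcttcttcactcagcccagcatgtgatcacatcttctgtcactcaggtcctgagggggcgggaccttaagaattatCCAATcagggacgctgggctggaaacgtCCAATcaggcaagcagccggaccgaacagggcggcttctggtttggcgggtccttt
ZNF486 (chr19:20166964-20167213, plus strand): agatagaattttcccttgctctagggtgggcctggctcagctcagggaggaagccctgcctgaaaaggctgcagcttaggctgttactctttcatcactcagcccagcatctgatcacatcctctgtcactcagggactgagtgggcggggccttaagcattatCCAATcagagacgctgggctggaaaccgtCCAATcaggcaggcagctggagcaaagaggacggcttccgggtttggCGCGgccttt
ZNF737 (chr19:20565782-20566031, minus strand): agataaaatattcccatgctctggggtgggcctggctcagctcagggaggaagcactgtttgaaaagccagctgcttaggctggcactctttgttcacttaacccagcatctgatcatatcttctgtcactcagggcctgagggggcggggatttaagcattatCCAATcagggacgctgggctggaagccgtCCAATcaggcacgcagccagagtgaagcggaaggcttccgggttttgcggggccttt
ZNF91 (chr19:23395472-23395721, minus strand): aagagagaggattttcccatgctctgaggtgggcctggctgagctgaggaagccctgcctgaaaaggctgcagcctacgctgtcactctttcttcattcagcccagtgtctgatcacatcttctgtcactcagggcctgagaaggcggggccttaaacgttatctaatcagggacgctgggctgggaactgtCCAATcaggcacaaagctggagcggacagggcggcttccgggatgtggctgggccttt
ZNF136 (chr19:12162846-12163095, plus strand): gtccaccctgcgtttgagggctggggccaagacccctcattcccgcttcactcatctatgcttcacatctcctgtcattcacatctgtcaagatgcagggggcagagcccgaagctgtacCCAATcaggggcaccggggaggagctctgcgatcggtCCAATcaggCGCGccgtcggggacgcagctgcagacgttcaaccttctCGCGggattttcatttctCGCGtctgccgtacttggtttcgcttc
ZNF709 (chr19:12484817-12485066, minus strand): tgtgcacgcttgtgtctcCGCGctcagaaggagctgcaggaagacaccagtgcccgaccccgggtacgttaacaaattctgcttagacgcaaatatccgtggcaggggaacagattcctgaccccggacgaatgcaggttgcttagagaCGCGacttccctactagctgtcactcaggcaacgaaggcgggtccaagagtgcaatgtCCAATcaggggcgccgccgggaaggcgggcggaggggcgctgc
The sequences are from the RefSeq promoter table (GRCh38.p14) and read 5′ to 3′ up to the base before the gene start. ZNF93 and ZNF486 had 87.0% identical positions in a global alignment, ZNF486 and ZNF737 86.8%, and ZNF93 and ZNF737 83.4%. ZNF91 had 83.1% identity to ZNF93, 84.3% to ZNF486 and 79.5% to ZNF737. ZNF136 and ZNF709 had 48.9% identity to each other and 50.6% to 52.9% to the other 4. Reads from such near copies can map to more than one of them, and how these were handled is not given in the sources used here, so values of close neighbours carry that uncertainty.

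The promoter table matched 73 of the 84 members. In its window of 250 bases before to 50 after the start, CCAAT was present for 60 of 73 (82.2%), against 39.0% of the ZNF genes of the long arm (19q) and 36.3% of all genes. The GC box core GGGCGG was present for 82.2%, against 60.3% of 19q ZNF genes and 58.5% of all genes. The ETS core CCGGAA was present for 52.1%, against 58.2% and 22.8%, and CGCG for 50.7%, against 84.9% and 65.2%. TATAAA was present for 4.11% of members and 9.64% of all genes, CACGTG for 0 members and 8.87%, TGACGT for 15.1% and 9.66%, and GATGGC for 9.59% and 13.2%. Both strands were searched, and matches of different motifs may overlap. The median number of CpG dinucleotides was 15 in members, 23 in 19q ZNF genes and 22 in all genes. The upstream 250 bases of ZNF93, ZNF486 and ZNF737 held 8, 7 and 7 CpG, and those of ZNF136 and ZNF709 held 18 and 20. Those of ZNF91, which kept its PolII peak, held 7. These matches describe letters, not binding sites.

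Presence of a peak was scored within 1 kb of a gene start. A peak's strength is given as its percentile, by the authors' fold over background, among all peaks of its own list, so that 100 is the strongest. A gene was called lost when every reference list and no tested list had a peak, and gained in the reverse case. With 2 lists against 2 the smallest exact permutation p is 0.333, and with 3 against 3 it is 0.100, so these calls carry no p-value. An absent peak means that none was called there, and in bulk lists fewer marked cells and a weaker mark per cell cannot be told apart. List size varied, with 235 to 63833 peaks in HDAC6 ChIP, and some lists were called on p and others on q. The markers VIM, AXL, LGALS1, CAV1, SNAI2 and MSN of this mesenchymal-like line had PolII in 8 of 8 lists, CD44 in 6 and ANXA1 in 2. All 6 leukocyte markers had PolII in 0 lists. Of the luminal and receptor genes, ESR1 had PolII in 0 lists, CDH1 and PGR in 2, EPCAM in 3, GATA3 in 7 and FOXA1 in 8. Of the neuronal genes, RBFOX3 had PolII in 1 list, SYN1 in 2, SNAP25 in 4 and GAD1 in 8.

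In parental cells most 19p ZNF genes were open and carried PolII. The share with an ATAC peak was 83.3%, 81.0% and 78.6% in the NextA lists and 83.3%, 76.2% and 77.4% in the Ctrl lists, against 60.0% to 63.8% of all genes. The 19q ZNF genes had like shares, 84.3%, 80.1% and 80.7% in NextA and 85.5%, 81.3% and 79.5% in Ctrl lists. PolII marked 47 and 56 members in the NextA lists and 55 and 71 in the Ctrl lists. Among hairpin cells the counts were lower. ATAC marked 51, 49 and 50 members in the shHDAC6 lists and 48, 52 and 49 in the shCtrl lists. PolII marked 47 and 48 in the shHDAC6 lists and 46 and 47 in the shCtrl lists, while over all genes PolII marked 64.6% to 65.1% in hairpin and 58.5% to 69.0% in parental lists. The hairpin ATAC lists did not overlap the parental ones in this count, while over all genes the shares ran from 56.3% to 60.5% in hairpin and from 60.0% to 63.8% in parental lists. The hairpin ATAC lists were also shorter, with 25878 to 32998 peaks, against 42113 to 79666 in the parental ones. In PolII, the NextA list of 47 lay within the hairpin range of 46 to 48.

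**Figure D1:**
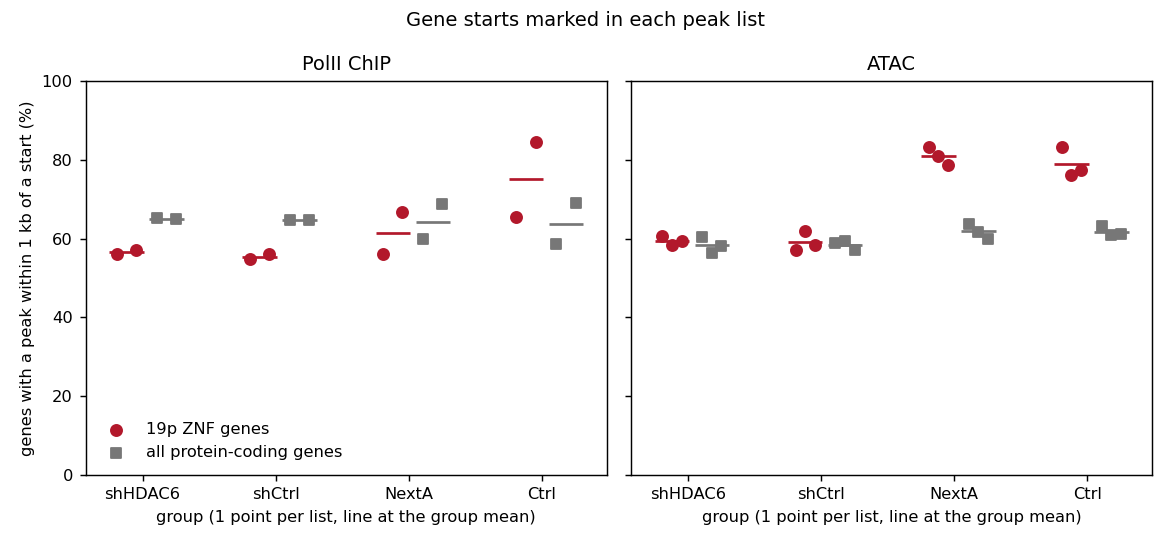
Percent of 19p ZNF genes (red circles) and of all protein-coding genes (grey squares) with a peak within 1 kb of a gene start, 1 point per list and a line at each group mean, for PolII ChIP (left) and ATAC (right). Members run from 57.1% to 61.9% in hairpin ATAC lists and from 76.2% to 83.3% in parental ones.

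Of the 84 members, 8 had no peak of any kind in 32 lists: ZNF177, ZNF560, ZNF208, ZNF676, ZNF729, ZNF98, ZNF723 and ZNF728. No PolII peak was listed for 11 members and no ATAC peak for 11. At the other end, 32 members had PolII in all 8 lists (38.1%, against 54.4% of all genes) and 41 had ATAC in all 12 (48.8%, against 43.8%). Where an ATAC peak was present it was strong: the median member percentile was 92.2, 91.3 and 88.9 in NextA lists and 87.6, 86.0 and 86.8 in Ctrl lists, against 62.0 to 78.9 for all genes in those lists. The median of 19q ZNF genes was 81.2, 90.6 and 90.9 in NextA and 73.1, 90.1 and 90.4 in Ctrl lists, lower than that of members in the first list of each group and, except in the second NextA list, higher in the others. The median PolII percentile of marked members was 73.5 and 59.5 in NextA lists and 59.2 and 65.7 in Ctrl lists, against 72.4 to 79.4 for all genes in those lists.

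The members with the strongest PolII peaks in Ctrl cells were ZNF333, ZNF627, ZNF266, ZNF557 and ZNF561. ZNF333, the only member between 14 and 19 Mb, stood at percentile 78.2 and 93.6 in NextA and 91.3 and 93.3 in Ctrl lists. ZNF627 stood at 96.4 and 97.7 in NextA and 88.7 and 87.1 in Ctrl lists. These do not overlap, but the share of all genes so separated was not counted. ZNF266 stood at 94.8 and 81.1 in NextA and 77.6 and 95.2 in Ctrl lists, which overlap. The 5 mean Ctrl percentiles, 92.3 ± 1.42, 87.9 ± 1.14, 86.4 ± 12.4, 84.2 ± 12.6 and 84.2 ± 12.2 (SD, n = 2 each), do not separate ZNF266, ZNF557 and ZNF561 from their neighbours in the order.

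PolII peaks were seldom listed at the far gene end. A PolII peak at the far gene end was listed for 1.37% to 12.3% of the 73 members of known strand, against 10.7% to 22.6% of all genes, and the highest member share was in NextA list 1. Peaks covered 3.70% and 1.88% of the 2.60 Mb of member gene bodies in the NextA PolII lists and 1.46% and 2.37% in the Ctrl PolII lists, and 1.43% to 1.48% in the 4 hairpin lists. The NextA and Ctrl values overlap. In some lists of the other ChIP targets, more members had a peak in the gene body than at the start. The counts were 15 against 4 and 10 against 1 in the HDAC6 lists after knockdown. They were 42 against 14 in the second HDAC6 Ctrl list and 32 against 15 in the second acetylation Ctrl list. The same held over all genes in these lists, so it is not particular to the members. Of all genes, 24.0% against 3.02% and 17.7% against 2.03% were so marked after knockdown. The all-gene shares were 52.9% against 24.2% in that HDAC6 Ctrl list and 41.9% against 20.3% in that acetylation Ctrl list. ZNF653 alone had a far-end peak in every PolII and ATAC list of both hairpin groups, the gene having been singled out after its values were seen.

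With NextA, 3 members lost their PolII peak: ZNF93, ZNF486 and ZNF737. They were 3 of the 53 members marked in both Ctrl lists, beside 8 of 11376 genes so marked (0.0703%), a contrast that the choice of these genes used. None of the 11 members without a Ctrl peak gained one, beside 0.951% of the 5889 such genes. The Ctrl peaks of the 3 lost members were of middle strength or weak. ZNF93 (chr19:19900946-19935575, plus strand) had no PolII peak in either NextA list, against percentiles 48.6 and 35.7 in the Ctrl lists, where the authors' fold was 3.86 and 3.75. The nearest NextA peaks lay 34678 and 78898 bp from its start window. ZNF486 (chr19:20167214-20200488, plus strand) had none with NextA, against 53.9 and 34.5 in Ctrl lists. ZNF737 (chr19:20530276-20565781, minus strand) had none with NextA, against 59.2 and 1.78 in Ctrl lists, the second being among the weakest peaks of its list. The −log10 q of these 6 Ctrl peaks ran from 0.484 to 4.14. With a −log10 q of at least 5 required, none of the 3 had a peak in either group, and 3 other members, ZNF433, ZNF563 and ZNF493, were lost instead. With an overlap of at least 200 bp, ZNF93 and ZNF486, whose first Ctrl peaks were 196 and 192 bp wide, were no longer called, and with lists of equal length ZNF737 was not. The count was 8 without the first NextA list, 9 without the second, 10 without the first Ctrl list and 4 without the second; leaving out a list can only add genes to such a call, so these counts do not bear on the stability of the 3.

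Chromatin at these 3 starts stayed open with NextA. ZNF93 had ATAC percentiles of 65.6, 69.2 and 55.8 in NextA and 56.8, 49.8 and 58.2 in Ctrl lists. ZNF486 had 97.7, 74.2 and 48.1 in NextA and 88.7, 79.2 and 39.2 in Ctrl lists. ZNF737 had 93.4, 65.3 and 76.5 in NextA and 94.4, 23.2 and 56.3 in Ctrl lists. The groups overlap for each gene. In hairpin cells, by contrast, all 3 had neither a PolII nor an ATAC peak in any of 10 lists.

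**Figure D2:**
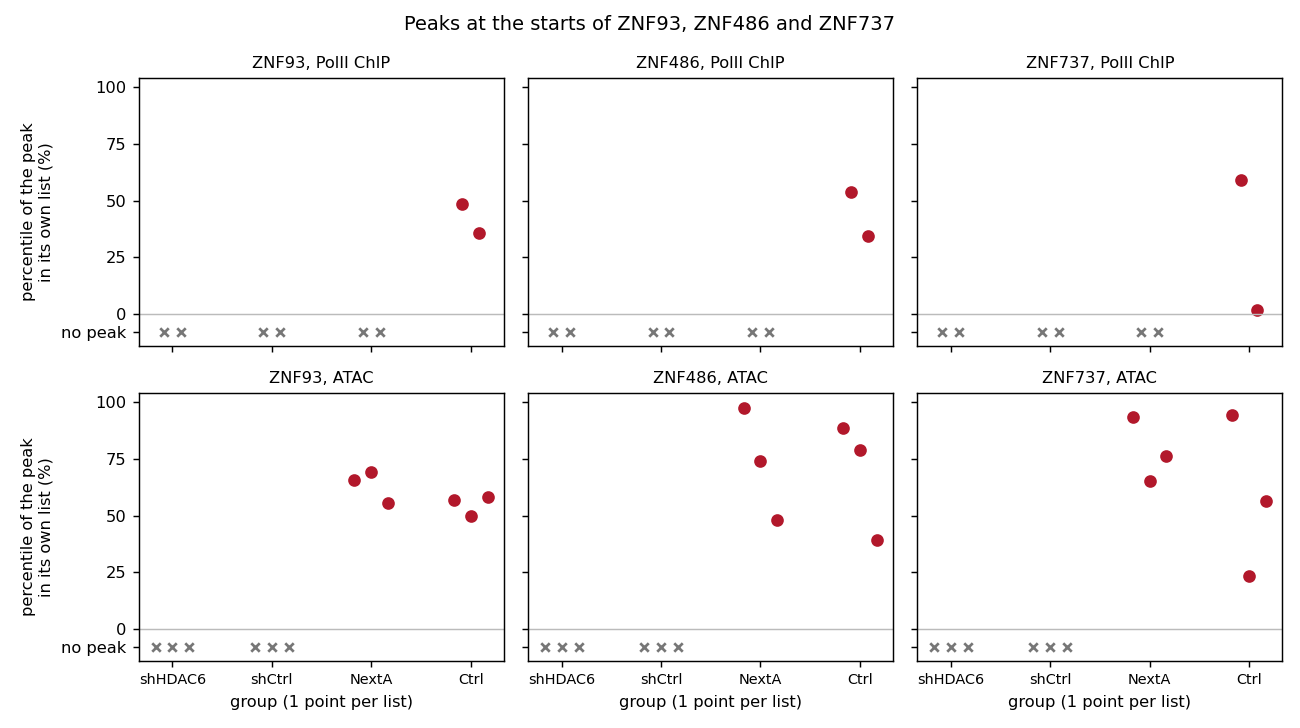
Percentile of the strongest peak at the start of ZNF93, ZNF486 and ZNF737 within its own list (percent, vertical axis) by group, 1 point per list, with crosses for lists without a peak, PolII ChIP above and ATAC below. PolII is present in Ctrl lists only, and ATAC in NextA and Ctrl lists at 23.2 to 97.7.

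The genes that lie between them behaved variably. ZNF682 had PolII in 1 of 2 NextA and 1 of 2 Ctrl lists, and ATAC in 3 of 3 NextA and 1 of 3 Ctrl lists. ZNF90 had PolII in 0 of 2 NextA and 1 of 2 Ctrl lists, and ATAC in 2 NextA and 1 Ctrl list. ZNF91, with 83.1% upstream identity to ZNF93, kept PolII in all 8 lists, at 83.9 and 38.5 in NextA and 18.4 and 51.4 in Ctrl lists.

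Beyond these 3 genes, members marked in only 1 list of a same-numbered pair fell mostly on the Ctrl side. Of the 81 other members, 2 had PolII in NextA alone and 7 in Ctrl alone in the first pair, and 1 and 13 in the second. Over these 81 the NextA count was 90.4% and 82.4% of the Ctrl count, beside 101% and 97.9% for 19q ZNF genes and 102% and 99.6% for all genes. These lists are those that the choice of the 3 genes used, and no test was made. Among the 37 members at 19 Mb and above, 11 and 20 had PolII in the NextA lists and 15 and 29 in the Ctrl lists. Among the 41 members between 6 and 14 Mb, the counts were 31 and 30 in NextA and 35 and 36 in Ctrl lists.

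In ATAC, no member was lost or gained with NextA, beside 0.0844% of all genes lost and 0.201% gained, and 60 of 84 members were marked in all 6 lists. A limma fit on the normal score of each gene's rank, over the 10007 genes marked in all 6 lists, called 0 genes at an adjusted p under 0.05, with 245 genes but none of the 60 members at an unadjusted p under 0.05. Only the first NextA and Ctrl lists deviated together more than lists of different number did. With the replicate number as a block the fit called 2 genes, neither a member, with 4 members at an unadjusted p under 0.05. On simulated data for this comparison the fit recovered 5% of rank shifts of 1 SD and 81% of shifts of 2 SD, so smaller differences were not detectable.

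Acetylated H3 was listed at more member starts with NextA, 60 and 21, against 1 and 15 in the Ctrl lists. The first Ctrl list held 1418 peaks and the others 28473 to 61186, so the first pair rests on a short reference list. Of 69 members with no Ctrl peak, 10 gained a peak (14.5%), beside 27.0% of 15125 such genes. ZNF426 stood at percentiles 80.0 and 97.8, ZNF554 at 82.3 and 89.9, ZNF699 at 90.1 and 75.5, ZNF317 at 63.1 and 98.4, ZNF77 at 89.1 and 62.7, ZNF100 at 52.1 and 99.5, ZNF431 at 49.7 and 86.6 and ZNF562 at 40.9 and 80.2. The other 2 were ZNF101 and ZNF430, each strong in 1 list only. None of ZNF93, ZNF486 and ZNF737 was gained: ZNF93 and ZNF486 had a peak in the first NextA list only, at 8.82 and 50.3, and ZNF737 had none. The count was 45 without the second NextA list and 19 without the second Ctrl list, and it was 0 with a −log10 q of at least 5. The rank fit covered 514 genes and 1 member and called 0 genes (limma, 16 at an unadjusted p under 0.05).

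HDAC6 marked a smaller share of these starts than of all genes in each of the 4 Ctrl lists. By ChIP it marked 28 members with the CST antibody (33.3%, against 55.6% of all genes) and 14 with the Novus antibody (16.7%, against 24.2%). By CUT&Tag it marked 30 (35.7%, against 39.4%) and 39 (46.4%, against 50.1%). All 4 lists marked 4 members (4.76%), ZNF555, ZNF823, ZNF440 and ZNF799, against 9.39% of all genes. No list marked 42.9% of members, against 31.2% of all genes. For 19q ZNF genes these shares were 3.01% and 18.7%, and for other 19p genes 10.3% and 34.2%. Without the first ChIP list 7 members were marked in all the others, and without the second, 20. By mean percentile over the lists that marked them, the highest members marked in at least 3 lists were ZNF557 at 95.6 ± 4.50, ZNF254 at 93.9 ± 1.52, ZNF559 at 88.6 ± 10.7, which shares its start with the read-through gene ZNF559-ZNF177, and ZNF564 at 88.4 ± 8.39 (SD, n = 3 lists each). Their spreads overlap. These means pool different lists: ZNF557, ZNF559 and ZNF564 had no peak in the Novus list and ZNF254 none in the CST list. In CUT&Tag alone, ZNF799 stood at 99.5 and 95.1 and ZNF333 at 99.1 and 99.0, with ZNF799 at 29.3 in the Novus list. ZNF93, ZNF486 and ZNF737 had no HDAC6 peak in any of these lists.

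With NextA no member had an HDAC6 peak in either list, so the 6 members marked in both Ctrl ChIP lists were all lost, beside 91.1% of the 3397 genes that could be lost. They were ZNF554, ZNF555, ZNF266, ZNF823, ZNF440 and ZNF799, at Ctrl percentiles between 0.882 and 90.5. The NextA lists held 3256 and 235 peaks, against 28590 and 63833 in the Ctrl lists, and peaks of the shorter one are named with the prefix used in shCtrl lists. The count of lost members was 14 without the first Ctrl list, 28 without the second, and 0 when every list was cut to its 235 strongest peaks. Knockdown lists had a Ctrl counterpart of the same antibody in 1 list only, and marked 4 and 1 members, against 14 in that Ctrl list. Over all genes the shares were 3.02% and 2.03% after knockdown, against 24.2% in that Ctrl list. ZNF254 was the only member marked on both sides.

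After knockdown of HDAC6, member starts gained 1 PolII peak and lost none. ZNF136 had PolII at percentiles 46.2 and 34.0 in shHDAC6 and no peak in shCtrl lists, 1 of 37 members (2.70%) beside 2.34% of the 6937 genes that could be gained. The background of lost genes was 0.866% of 12816, beside 0 of 46 members. In parental cells ZNF136 stood at 81.1 and 82.4 in NextA and 16.9 and 52.4 in Ctrl lists. These do not overlap, but the share of all genes so separated was not counted and the difference was not tested. This PolII contrast is also the one that the choice of genes used. In ATAC the only call was ZNF709, gained at 59.5, 43.4 and 40.0 in shHDAC6 with no peak in shCtrl lists, 1 of 31 members beside 0.548% of the 7111 genes that could be gained. Its PolII peak was present in both hairpin groups, at 5.81 and 28.0 in shHDAC6 and 38.5 and 47.2 in shCtrl lists. None was lost, beside 0.356% of genes. With a −log10 q of at least 5, neither ZNF136 nor ZNF709 was called, and the PolII gains were 5 others: ZNF823, ZNF799, ZNF738, ZNF675 and ZNF681.

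The rank of the PolII peak did differ between hairpin groups at many members, as it did at many genes. The limma fit over 12613 genes marked in all 4 lists called 26 of the 46 members so marked (56.5%), 13 higher and 13 lower, beside 53.1% of all genes, 26.8% higher and 26.4% lower. The member share is near that background and says nothing particular of these genes. ZNF77 stood at percentiles 62.1 and 62.2 in shHDAC6 and 97.6 and 97.2 in shCtrl lists, a difference in normal score of -1.86 ± 0.10 (SE; limma adjusted p = 0.00103). ZNF440 stood at 92.6 and 90.6 in shHDAC6 and 42.6 and 52.6 in shCtrl lists, a difference of 1.87 ± 0.14 (limma adjusted p = 0.00122). ZNF562 stood at 98.2 and 98.1 in shHDAC6 and 82.9 and 79.3 in shCtrl lists, a difference of 1.42 ± 0.11 (limma adjusted p = 0.00122). In each case the groups do not overlap.

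Other members lower in shHDAC6 were ZNF556 (-1.56), ZNF254 (-1.50), ZNF85 (-1.39), ZNF557 (-1.38), the shared start of ZNF490 and ZNF791 (-1.19), that of ZNF559 and ZNF559-ZNF177 (-0.96), ZNF653 (-0.93), ZNF709 (-0.88), ZNF627 (-0.76) and ZNF414 (-0.43). Others higher were ZNF675 (1.20), ZNF14 (1.15), ZNF121 (0.97), ZNF266 (0.82), ZNF91 (0.78), ZNF738 (0.76), ZNF823 (0.71), ZNF333 (0.68), ZNF564 (0.63), ZNF555 (0.59) and ZNF799 (0.41), all as differences in normal score with a limma adjusted p of 0.00148 to 0.0452. ZNF91, the SVA repressor gene, stood at 41.2 and 35.5 in shHDAC6 and 6.80 and 13.9 in shCtrl lists. Across the 12613 genes, percentiles of the 2 lists of a group correlated at a Spearman rho of 0.97 and those of different groups at 0.75 to 0.78. The p-values measure the spread between lists this close, which may be technical, and with −log10 p in place of the fold 5 members were called higher and 8 lower. In ATAC the fit called 0 of 9693 genes (722 at an unadjusted p under 0.05, among them 3 of 43 members, ZNF100, ZNF823 and ZNF714). The difference between the NextA and the shHDAC6 effect was called for 0 of 8754 genes (411 at an unadjusted p under 0.05, none of 41 members).

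**Figure D3:**
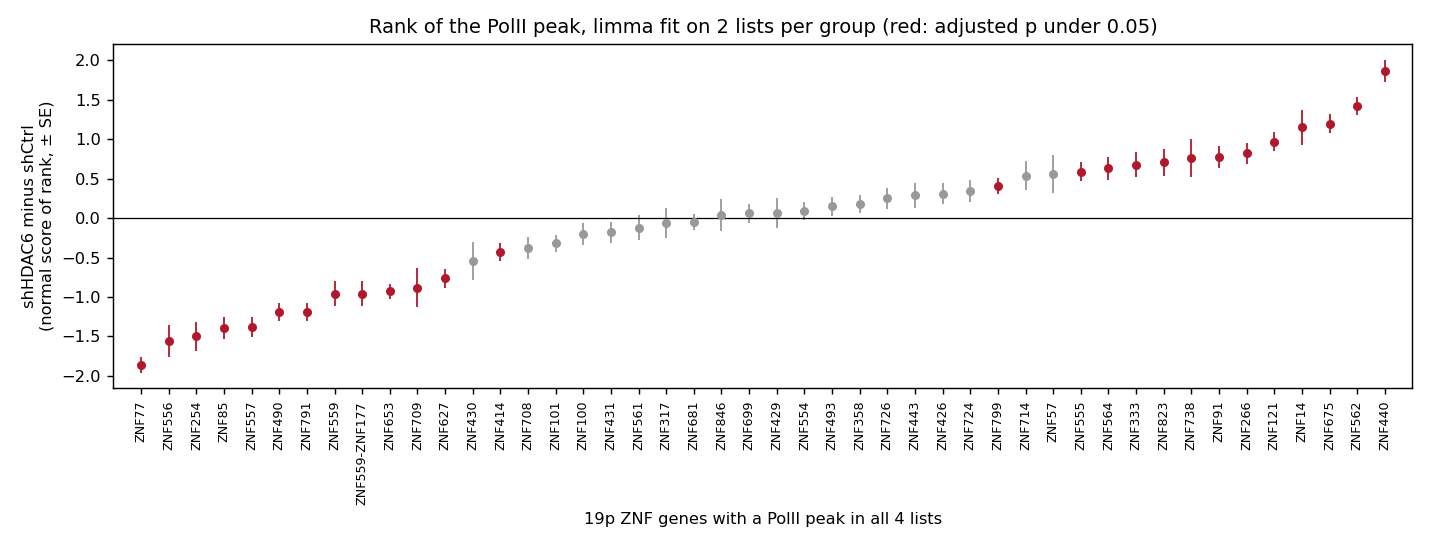
Difference in the normal score of the PolII peak's rank, shHDAC6 minus shCtrl (vertical axis, points with SE bars, limma on 2 lists per group), for the 46 members with a peak in all 4 lists, red where the adjusted p was under 0.05. The points run from -1.86 (ZNF77) to 1.87 (ZNF440), with 13 called on each side of 0.

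A larger difference lay between the 2 experiments. The comparison of shCtrl with parental Ctrl cells was added after the data were seen, and its PolII Ctrl lists are those by which ZNF93, ZNF486 and ZNF737 were chosen. Of the 53 members with PolII in both Ctrl lists, 14 had none in either shCtrl list (26.4%), beside 2.21% of 11376 genes, 4.96% of 19q ZNF genes (6 of 121) and 2.99% of other 19p genes (10 of 334). Of the 62 members with ATAC in all 3 Ctrl lists, 11 had none in the 3 shCtrl lists (17.7%), beside 2.68% of 10660 genes, 1.59% of 19q ZNF genes (2 of 126) and 3.47% of other 19p genes (9 of 259). None of the 11 members without a Ctrl PolII peak and none of the 13 without a Ctrl ATAC peak was gained. Of all such genes 2.00% and 1.04% were gained, and of 23 and 17 such 19q ZNF genes 0, so these zeros are near the background. With a −log10 q of at least 5, 9 members lost PolII, 6 of them among the 14, and 12 lost ATAC, 7 of them among the 11. With lists of equal length the counts were 11 and 6. For ATAC, where every Ctrl list was longer than every shCtrl list, this length was 28883 peaks. Without the first Ctrl list, which was called on q, 24 members lost PolII, and without the second, 16 lost and 8 gained it. For ATAC, leaving out a list gave 11 to 13 losses, and leaving out a list can only add genes to such a call. These alternative counts were made for members only. Whether the excess over all genes holds in these settings was not tested. The shares of lost genes given above are descriptions over genes that lie side by side. Line, hairpin vector, experiment and peak calling differ together between the 2 groups and cannot be told apart.

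**Figure D4:**
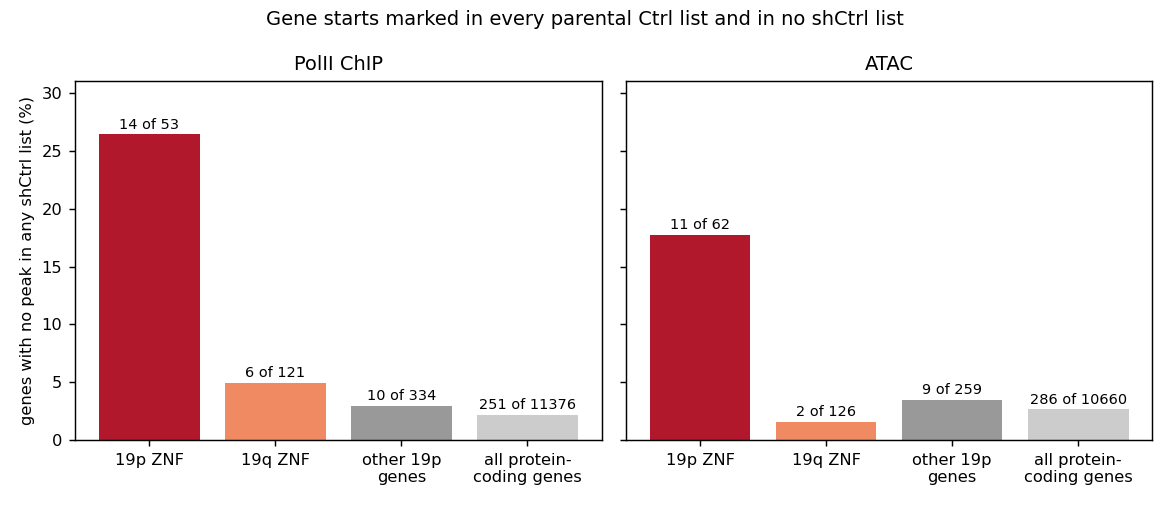
Percent of gene starts marked in every parental Ctrl list that had no peak in any shCtrl list (bars from 0), for 19p ZNF genes, 19q ZNF genes, other 19p genes and all protein-coding genes, with counts above the bars, PolII ChIP (left) and ATAC (right). Members reach 26.4% and 17.7%, against 2.21% and 2.68% of all genes.

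The PolII losses were ZNF558, ZNF441, ZNF491, ZNF700, ZNF433, ZNF878, ZNF20, ZNF136, ZNF44, ZNF563, ZNF506, ZNF93, ZNF486 and ZNF737. The ATAC losses were ZNF69, ZNF700, ZNF433, ZNF878, ZNF625, ZNF442, ZNF709, ZNF253, ZNF93, ZNF486 and ZNF737. Both assays shared 6: ZNF700, ZNF433, ZNF878, ZNF93, ZNF486 and ZNF737, which is 6 of 14 PolII and 6 of 11 ATAC losses. ZNF433 had no ATAC peak in shCtrl lists, against percentiles of 84.9, 65.5 and 67.2 in Ctrl lists, and no PolII peak, against 66.3 and 42.2. ZNF878 had neither, against ATAC percentiles of 87.8, 85.3 and 49.7 and PolII percentiles of 72.1 and 39.7 in Ctrl lists. ZNF253 had no ATAC peak in shCtrl lists, against 93.0, 76.7 and 80.7 in Ctrl lists, and a PolII peak at 16.8 in 1 shCtrl list, against 19.3 and 46.0. These 3 had the highest mean Ctrl percentiles among the 11 ATAC losses, 72.6 for ZNF433, 74.3 for ZNF878 and 83.5 for ZNF253. The lowest was 47.2 (ZNF442), and the median of marked members was 86.0 to 87.6 in the ATAC Ctrl lists. Among the 14 PolII losses the mean Ctrl percentiles ran from 16.9 (ZNF20) to 55.9 (ZNF878), against member medians of 59.2 and 65.7. By these means the lost starts were weaker in parental cells than the median marked member. In single lists this did not hold for all of them: in the first Ctrl list of each assay, some stood above the member median of that list.

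Many of the starts without hairpin peaks were neighbours. From ZNF439 to ZNF844 (chr19:11848726-12081565), 7 members in a row had no PolII and no ATAC peak in any of 10 hairpin lists, although all 7 had a peak in at least 1 of 10 parental lists. From ZNF93 to ZNF626 (chr19:19900946-20661571), 6 members in a row did the same. In both runs 0 members had a peak in all 10 parental lists. Of these parental lists, ZNF439 and ZNF626 were marked only in the first NextA and the first Ctrl ATAC list, the longest ATAC lists. ZNF844 was marked in those and in 1 PolII list. The members lost in either assay were 19. Apart from ZNF558, they mark out a stretch from ZNF441 to ZNF709 (11.77 to 12.48 Mb) and one from ZNF506 to ZNF737 (19.79 to 20.57 Mb), bounds that the lost members themselves set. Of the 19 members inside the first stretch, 13 had PolII in every Ctrl list and 9 of these lost it. ATAC was in every Ctrl list at 16 of the 19, and 7 of these lost it. Of the 7 inside the second, 5 had PolII and 5 had ATAC in every Ctrl list, and 4 lost each. No other protein-coding gene lies in the first stretch, and the 1 in the second was not marked in every Ctrl list of either assay. A further run, ZNF43 to ZNF730 (chr19:21804946-23147221), held 11 members without a hairpin peak, but 7 of these had none in parental lists either. Marked starts lay among and around them: ZNF440 and ZNF799, inside the first stretch, and ZNF14 and ZNF85, on either side of the second, had PolII in both lists and ATAC in all 3 lists of both hairpin groups.

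**Figure D5:**
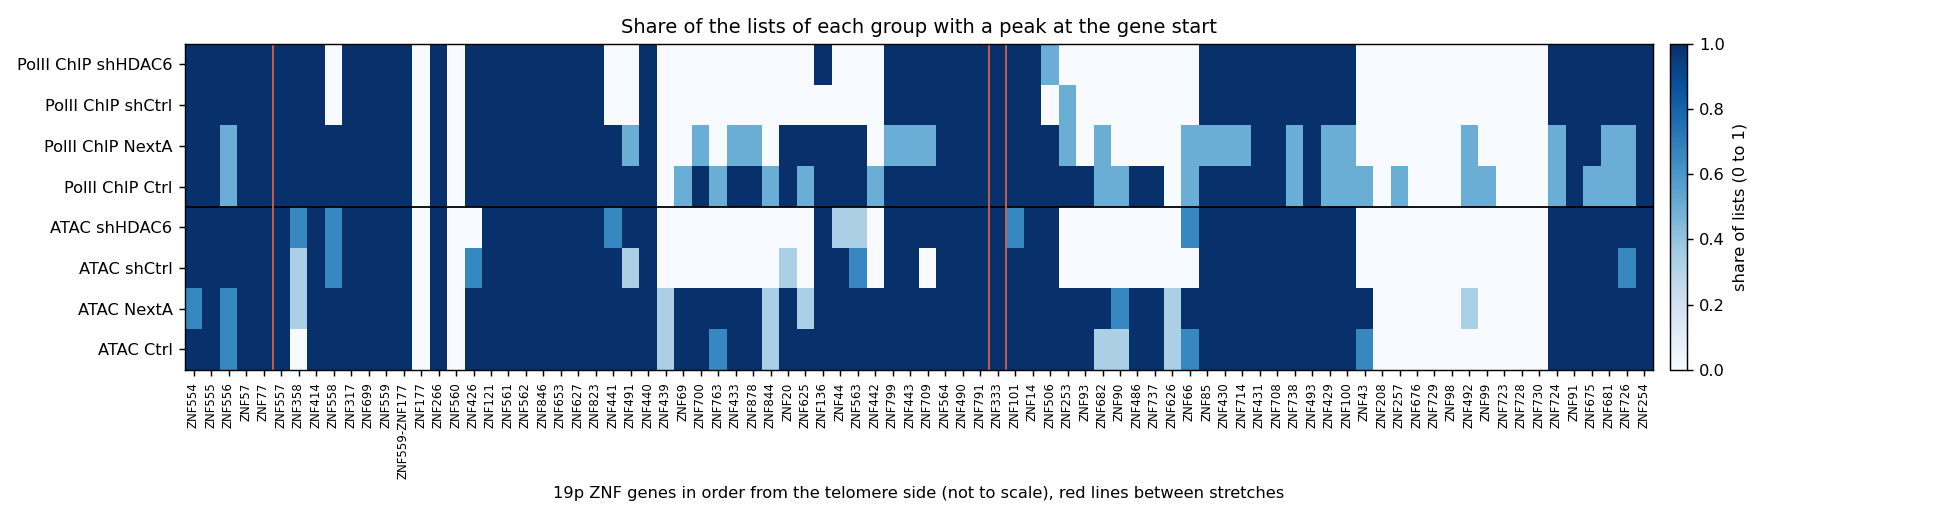
Share of the lists of each group with a peak within 1 kb of the start (colour, 0 to 1) for the 84 members in their order along 19p (horizontal axis, not to scale), with PolII ChIP in the upper 4 rows and ATAC in the lower 4, and red lines between the stretches below 6 Mb, 6 to 14 Mb, 14 to 19 Mb and above. The runs ZNF439 to ZNF844 and ZNF93 to ZNF626 are blank in the 4 hairpin rows, while the NextA and Ctrl rows hold peaks for every gene of both runs in at least 1 assay.

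The HDAC6 hairpin lists resembled the control hairpin lists at these starts. Of the 14 PolII losses, ZNF136 had a peak in 2 shHDAC6 lists and ZNF506 in 1, and the other 12 had none. Of the 11 ATAC losses, ZNF709 had a peak in 3 shHDAC6 lists, and the other 10 had none. Over both hairpin groups, 12 members had PolII in every Ctrl list and no hairpin list (14.3%, against 0.831% of all genes), and 10 did so in ATAC (11.9%, against 0.946%). The reverse, a peak in a hairpin list and none in a parental one, was found for 0 members in either assay, against 0.375% of all genes in PolII and 2.18% in ATAC.

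Genes that encode the machinery these proteins recruit kept their PolII peaks, as nearly all marked genes did. Of 28 listed corepressor and heterochromatin genes, 28 had PolII in all lists of the NextA and of the hairpin comparison. Among them were TRIM28, the KRAB corepressor, and MPHOSPH8 and MORC2, of the silencing complex HUSH and its partners. Of all genes that could lose PolII, 0.0703% did so with NextA and 0.866% after knockdown. The loss of 0 of 28 is thus near the background and says nothing particular of these genes. HDAC6 ChIP peaks were lost at 6 with NextA: TRIM28, MORC2, CHD3, SUMO2, DNMT3B and SETD2. The HDAC6 ChIP Ctrl lists marked 25 and 8 of the 28, so at most 8 could be lost. Acetylated H3 was gained at 13, including CHD4, MPHOSPH8, CBX1 and DNMT3A, where the acetylation Ctrl lists marked 6 and 8 of the 28. In ATAC, DNMT3B, a DNA methyltransferase gene, was gained after knockdown. For HDAC6, acetylation and ATAC, the listed genes that could be lost or gained were not counted. Their counts therefore cannot be set against the background shares given above.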

How the data were processed

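Peaks of 32 libraries were taken from deposited per-sample lists without a header; 9 further samples were not analysed here. Among the tools in the submitters' processing notes, which give no roles, are the aligner Bowtie2 2.4.4, the peak caller MACS2 2.2.7.1 and the trimmer Trim Galore 0.6.7. The notes also list SAMtools 1.13 and the build hg38; how reads that map to several copies were handled is not given in the sources used here. Each peak's fold enrichment (a linear ratio), its −log10 p-value, its −log10 q-value and a whole-number score are the authors' deposited values. Read depth is unknown, so the number of peaks stands for the size of a list. Some lists were called on q, and others on p with numbers missing from the peak names, and same-numbered NextA and Ctrl lists were called on the same measure. Names of peaks in the second CUT&Tag list carry a hairpin prefix; the list was kept in the group of its label.

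Gene starts came from the RefSeq promoter table (73 of 84 members) or, where it holds none, from whichever end of the gene had peaks in more lists (7 members) or both ends (4 members). Windows of 1 kb on each side needed 1 bp of overlap. Ranks by fold over genes marked in all lists of a comparison were turned into normal scores and fitted with limma 3.58.1 (R 4.3.3), two-sided, with Benjamini-Hochberg adjustment over all genes of the fit, and tested on simulated data. The fit recovered 99% of simulated shifts of 1 SD in PolII of hairpin cells, 20% in ATAC of hairpin cells and 0% for the difference between both ATAC contrasts. Deviations of same-numbered NextA and Ctrl ATAC lists correlated at 0.53, 0.21 and 0.21 over genes, but lists 2 and 3 correlated as well across numbers (0.23 and 0.22). In hairpin ATAC lists the correlations were 0.01 to 0.02. The main fits used no block, and the replicate number as a block was an alternative. Other steps used Python 3.11.15 with pandas 2.3.3, NumPy 2.4.6 and Biopython 1.88. Genes were named by rule: the 3 genes named in the choice and those between them, up to 8 lost and 8 gained members per comparison by mean percentile, members past an adjusted p of 0.05, and the 5 highest members for PolII and HDAC6; lists of up to 14 lost members are given whole. Members and gene lists were chosen with earlier results of these data known. The alternatives tried were equal list length, a floor of 5 on −log10 q, an overlap of 200 bp, windows of 500 bp or 3 kb, other gene ends, −log10 p or percentiles in place of the fold, a replicate block, and leaving out each list. The motif search used 8 motifs, and protein sequences were not used here.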

Additional observations from a re-analysis of the deposited data

Results flagged for a closer look

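At 2 of the 26 members called in PolII after knockdown, every NextA list stood above every Ctrl list while every shHDAC6 list stood below every shCtrl list. They were 2 of the 20 called members with a peak in all 8 lists (10.0%), beside 394 of 5770 such called genes (6.83%); with opposite moves of either direction counted, the shares were 10.0% and 11.8%. The member share is near that of all called genes. ZNF77 stood at percentiles 84.1 and 83.6 with NextA and 79.8 and 66.1 in Ctrl cells, and at 62.1 and 62.2 with shHDAC6 and 97.6 and 97.2 with shCtrl. The NextA difference minus the shHDAC6 difference was 46.2 percentile points. ZNF627 stood at 96.4 and 97.7 with NextA and 88.7 and 87.1 in Ctrl cells, and at 78.0 and 77.3 with shHDAC6 and 94.1 and 91.4 with shCtrl, a difference of 24.2 points. Neither difference between the experiments was tested, and PolII with and without NextA is the contrast by which ZNF93, ZNF486 and ZNF737 were chosen.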

How the results depend on the processing

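Windows of 500 bp and 3 kb changed no count of lost or gained members by over 1.5 times. Requiring a −log10 q of at least 5 gave 0 HDAC6 losses, 0 acetylation gains, 5 PolII and 0 ATAC gains after knockdown, 9 PolII losses in shCtrl against Ctrl, and 0 members with HDAC6 in all 4 control lists. Equal list length gave 0 HDAC6 losses, 0 acetylation gains and 6 ATAC losses in shCtrl against Ctrl. An overlap of 200 bp left 1 PolII loss with NextA, ZNF737, equal list length left 2, ZNF93 and ZNF486, and counting both ends and the gene body gave 14 HDAC6 losses. With −log10 p in place of the fold, 5 members ranked higher and 8 lower in PolII after knockdown. Apart from the rank fits, these alternatives were counted for members only, so no share of all genes stands beside them. The cause of these shifts was not tested.

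Leaving out a list can only add genes to a lost or gained call, or to members marked in all remaining lists. The low ends of those ranges therefore do not bear on stability. Leaving out each list in turn gave 6 to 28 HDAC6 losses and 10 to 45 acetylation gains. PolII losses with NextA ran from 4 to 10 and gains from 0 to 1, and PolII losses after knockdown from 0 to 1 and gains from 1 to 2. ATAC losses and gains with NextA ran from 0 to 1 each, and after knockdown losses ran from 0 to 1 and gains from 1 to 2. In shCtrl against Ctrl, PolII losses ran from 14 to 24, PolII gains from 0 to 8 and ATAC losses from 11 to 13. Members with HDAC6 in all remaining control lists ran from 4 to 20. In the PolII rank fit 9 to 13 members were called higher and 11 to 13 lower.

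A replicate block left every count of lost or gained members as it was, by construction. With the block the PolII rank fit after knockdown called 15 members higher and 15 lower, against 13 and 13 without it. The labels tie same-numbered PolII or acetylation lists to no shared culture or day, though same-numbered NextA and Ctrl lists were called on the same measure. Their correlations were 0.44 (PolII with NextA), 0.12 (PolII after knockdown) and 0.25 (acetylation). Of the 26 members called in that fit, 10 kept the call in every alternative, 16 lost it in at least 1, and 0 changed sign. Lists without depth and with 2 or 3 replicates limit all of these values.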
